A study of Mus musculus with 10 samples.

Results

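The interferon response genes are a list of 34 genes that cells switch on when interferon reaches them. Of these, 33 had a row in both tables of this series of mouse skin RNA sequencing, out of 18502 genes in the Eed table and 18344 genes in the Ring1 table, and Mx2 was not analysed here. The members were picked by gene name, with earlier results of these data known. A mean normalised read count of at least 5 was needed for testing, which 32 members reached in each table and Ifit3 did in neither.

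The cells were basal keratinocytes of the epidermis between the hair follicles, sorted from back skin at postnatal day 71 as positive for EpCAM and Sca1 and high for α6-integrin. Eed KO libraries (n = 3) carried the genotype Eed -/- and were set against Eed control libraries (n = 3). Ring1a/b 2KO libraries (n = 2) carried the genotype Ring1a-/- Ring1b-/- and were set against Ring1 control libraries of their own (n = 2). Per the labels' protocols, 4-hydroxytamoxifen was put on the skin from postnatal day 50 for 4 days, and the labels name neither the Cre line nor the genotype of the controls beyond "Control". Eed is a core subunit of Polycomb repressive complex 2. Polycomb repressive complex 1 has Ring1 (also Ring1a) or Rnf2 (also Ring1b) as its ubiquitin ligase. Both complexes keep genes silent through marks on histones. The labels do not say whether each library came from a separate mouse, so every p-value measures the spread between these libraries only.

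Type I interferons (IFN-α, IFN-β and, in keratinocytes, IFN-κ) bind the receptor chains IFNAR1 and IFNAR2. The kinases JAK1 and TYK2 then switch on the factor ISGF3, which holds STAT2 and IRF9 and binds the interferon-stimulated response element (ISRE) in the promoters of its targets. IFN-γ works through its own receptor, JAK1, JAK2 and the gamma-activated site (GAS) in promoters, and it drives IRF1, the guanylate-binding proteins and the immunoproteasome. The targets block viral RNA and protein at many steps, and several of them (IRF7, IRF9 and STAT2) feed the pathway itself. Ly6a, which encodes the sorting marker Sca1, is also an interferon-inducible gene.

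By GENCODE M21 positions on mm10, 6 members lie on chromosome 5 (Cxcl10 and the 5 oligoadenylate synthetase genes), 4 on chromosome 11, and 3 each on chromosomes 3, 16 and 19, the last being the Ifit genes. The promoters were searched for short forms (cores) of the ISRE and the GAS. RefSeq promoter windows (GRCm38.p6, from 250 bases before to 50 bases after a start site) matched 26 of the 34 members. The ISRE core, searched as GAAANNGAAA on both strands (its reverse complement is TTTCNNTTTC), was present for 14 of the 26 members, or 53.8%. Among all 27025 genes with a window the share was 3.99%. The GAS core, TTCNNNGAA, which reads the same on both strands, was present for 6 of the 26 members, or 23.1%, and for 9.55% of all genes, and both motifs overlapped in 1 member window. The 6 promoters below are those of the members with an ISRE core and the highest mean count, averaged over the Eed and Ring1 tables, each written 5′ to 3′ along its gene, with the matching letters in capitals.
Ifih1 (chr2:62646206-62646505, strand -): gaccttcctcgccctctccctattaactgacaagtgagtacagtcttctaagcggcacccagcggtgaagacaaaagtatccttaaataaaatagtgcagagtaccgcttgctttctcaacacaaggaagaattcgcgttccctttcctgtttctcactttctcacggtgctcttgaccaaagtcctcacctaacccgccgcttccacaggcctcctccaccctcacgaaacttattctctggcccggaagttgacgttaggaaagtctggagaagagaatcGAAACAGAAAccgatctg
Stat2 (chr10:128270248-128270547, strand +): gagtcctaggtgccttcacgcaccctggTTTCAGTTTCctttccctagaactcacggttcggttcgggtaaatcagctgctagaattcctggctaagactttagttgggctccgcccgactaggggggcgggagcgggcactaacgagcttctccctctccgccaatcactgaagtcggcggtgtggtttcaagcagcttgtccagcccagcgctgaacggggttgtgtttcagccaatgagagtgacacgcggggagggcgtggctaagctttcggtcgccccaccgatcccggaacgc
Cxcl10 (chr5:92348840-92349139, strand -): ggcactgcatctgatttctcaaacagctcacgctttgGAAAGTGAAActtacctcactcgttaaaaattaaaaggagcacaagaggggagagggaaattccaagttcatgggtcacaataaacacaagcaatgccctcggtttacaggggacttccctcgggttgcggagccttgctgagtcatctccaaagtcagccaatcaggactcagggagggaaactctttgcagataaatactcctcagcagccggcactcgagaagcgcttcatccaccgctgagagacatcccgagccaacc
Ddx58 (chr4:40239776-40240075, strand -): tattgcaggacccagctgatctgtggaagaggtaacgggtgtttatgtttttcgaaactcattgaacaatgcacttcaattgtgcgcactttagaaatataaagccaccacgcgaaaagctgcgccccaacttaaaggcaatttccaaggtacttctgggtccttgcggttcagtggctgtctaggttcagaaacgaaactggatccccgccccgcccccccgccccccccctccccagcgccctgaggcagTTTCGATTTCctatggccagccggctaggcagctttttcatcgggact
Gbp2 (chr3:142620413-142620712, strand +): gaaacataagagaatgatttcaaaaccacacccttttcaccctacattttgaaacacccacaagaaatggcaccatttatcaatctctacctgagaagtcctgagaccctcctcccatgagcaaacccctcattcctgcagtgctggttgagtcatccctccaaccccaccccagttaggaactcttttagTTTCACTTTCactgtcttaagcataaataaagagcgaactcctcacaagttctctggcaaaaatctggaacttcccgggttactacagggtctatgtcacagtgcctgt
Oas1a (chr5:120907476-120907775, strand -): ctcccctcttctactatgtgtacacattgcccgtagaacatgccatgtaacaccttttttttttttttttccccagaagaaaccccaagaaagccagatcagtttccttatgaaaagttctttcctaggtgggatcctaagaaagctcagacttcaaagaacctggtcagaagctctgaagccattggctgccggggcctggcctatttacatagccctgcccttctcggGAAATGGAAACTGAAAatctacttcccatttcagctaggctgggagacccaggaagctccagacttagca

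The core lay 222 bases before the start site in Stat2, 213 before it in Cxcl10 and 59 before it in Gbp2. In Oas1a a pair of overlapping matches began 20 bases before the start site. The match stood 32 bases after the start site in Ifih1 and 2 bases after it in Ddx58. The windows of Irf1 and Psmb8, which were among the 3 members with the highest mean counts in both tables, and of Psmb9, which was among them in the Eed table, held no ISRE core in these letters. A match is a stretch of letters and not a measured binding site.

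The libraries held 31699979 to 40701183 recovered reads in the Eed table and 6237389 to 25158144 in the Ring1 table, where Ring1a/b 2KO 2 (6237389) and Ring1 control 2 (7162907) were the shallow ones. Basal keratinocyte markers were abundant in every library: all 8 had reads, and their summed count was 1114519 to 1606896 in Eed KO and 1046073 to 1503354 in Eed control, and 231529 to 270770 in Ring1a/b 2KO and 253980 to 315979 in Ring1 control. The tables were normalized separately, so levels were compared only within a table. The exception is the choice of promoters above, which used a mean over both tables. Eed had normalised read counts of 1412, 1143 and 1340 in the Eed KO libraries and 1845, 1319 and 1706 in the Eed controls. In the Ring1 table, Ring1 stood at 104 and 115 in the 2KO libraries and 66.2 and 211 in the controls. Rnf2 counts were 720 and 529 in the 2KO libraries and 675 and 670 in the controls. These counts cover whole genes, overlapped between knockout and control and do not check the genotype labels.

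Neither knockout changed a member past the test. limma on log2(normalised count + 1), with p-values adjusted by Benjamini-Hochberg over all features, called 0 of 32 members in Eed KO against Eed control, where 0% of the 16122 features tested were called. The unadjusted p was under 0.05 for 1 member, Gbp3, against 4.73% of all features. edgeR's quasi-likelihood test on the recovered reads also called 0 features, with 826 features (5.12%) and 1 member at an unadjusted p under 0.05. The authors' deposited table called 127 of 16684 features, or 0.761%, and none of the 33 members. In Ring1a/b 2KO against Ring1 control limma called 0 of 32 members and 6 of 15310 features, or 0.0392%. Unadjusted, 2 members (Mx1 and Oasl1) were under 0.05, against 10.4% of all features. edgeR called 6 features and 0 members, with 1506 features (9.84%) and 2 members at an unadjusted p under 0.05. The authors' deposited table called 231 of 15498 features, or 1.49%, and 0 of the 32 members with an adjusted p. In both comparisons the share of members reached was at or below the share over all features.

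The members leaned low in both knockouts, and in both the lean rested on single libraries. The Eed comparison gave 21 of 32 members a log2 fold change below 0, against 7873 of 16122 features, and the members' median was −0.12, beside 0.008 for all features. Without Eed control 2 the median was 0.16, and without Eed KO 2 it was 0.0073. It was −0.35 without Eed control 1 and −0.27 without Eed KO 1. The Ring1 comparison gave 23 of 32 members a value below 0, against 7659 of 15310 features, and the members' median was −0.33, beside −0.001 for all features. Without Ring1a/b 2KO 2 the median was 0.27, and without Ring1a/b 2KO 1 it was −1.09.

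**Figure D1:**
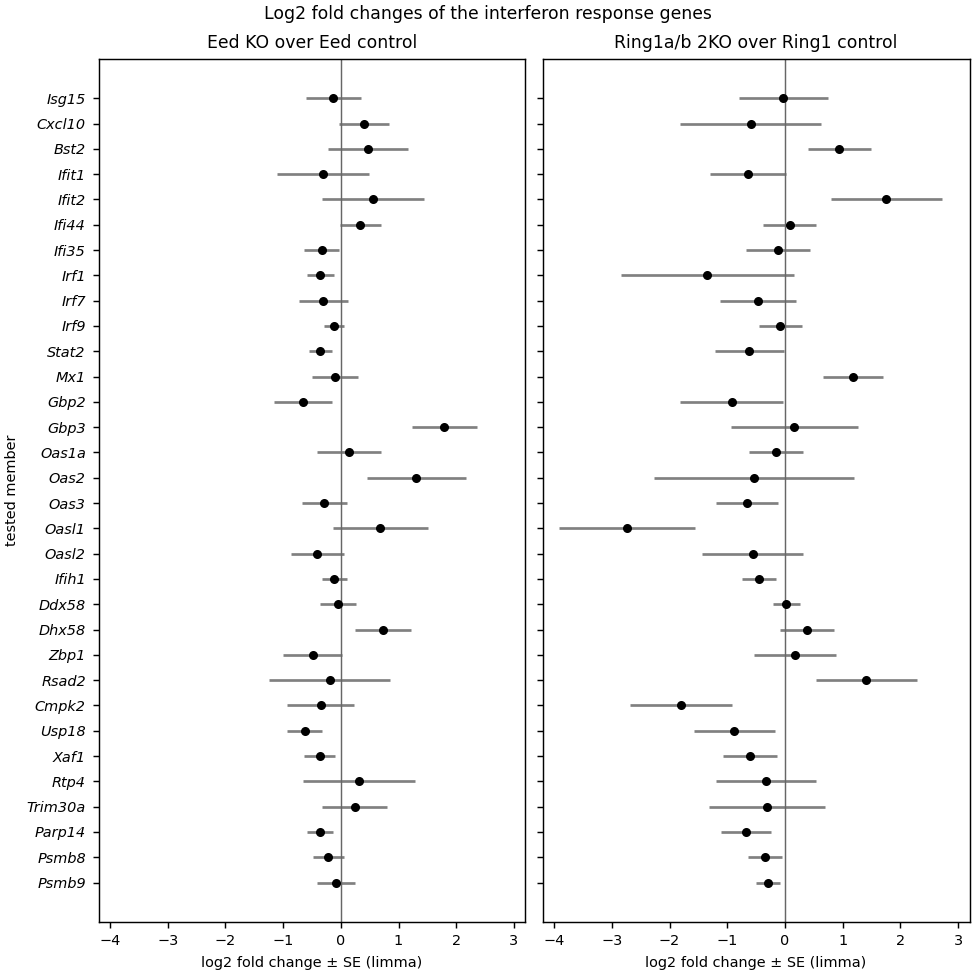
Log2 fold change of each tested member (points) with its standard error (bars, limma), for Eed KO over Eed control on the left and Ring1a/b 2KO over Ring1 control on the right. Members run down the page by role. Gbp3 stands out at 1.79 in Eed KO, Mx1 is at 1.18 and Oasl1 at −2.74 in Ring1a/b 2KO, and no member reached an adjusted p under 0.05.

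The clearest structure was from library to library. Eed control 2 was the highest of the 6 Eed libraries for 18 of 32 members, whereas it was the highest for 19.9% of all features. Eed control 1 was the lowest for 13 members, against 15.8% of all features. The median member stood 0.53 above its table mean in Eed control 2 and 0.49 below it in Eed control 1 on the log2 scale, while the 3 Eed KO libraries lay between them, at 0.19, −0.17 and −0.13. In the Ring1 table, Ring1a/b 2KO 2 was the lowest library for 23 of 32 members, against 32.2% of all features, and its median member deviated by −0.88. Ring1a/b 2KO 1 was above the table mean for 29 members, with a median of 0.50. The Ring1 controls sat between the pair of 2KO libraries, at 0.13 and 0.17. All-feature medians were near 0 in every library. The wider within-group range was larger than the difference between group means for 31 of 32 members in the Eed table and 27 of 32 in the Ring1 table. The same share over all features was not computed, so these counts do not set the members apart from other genes.

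**Figure D2:**
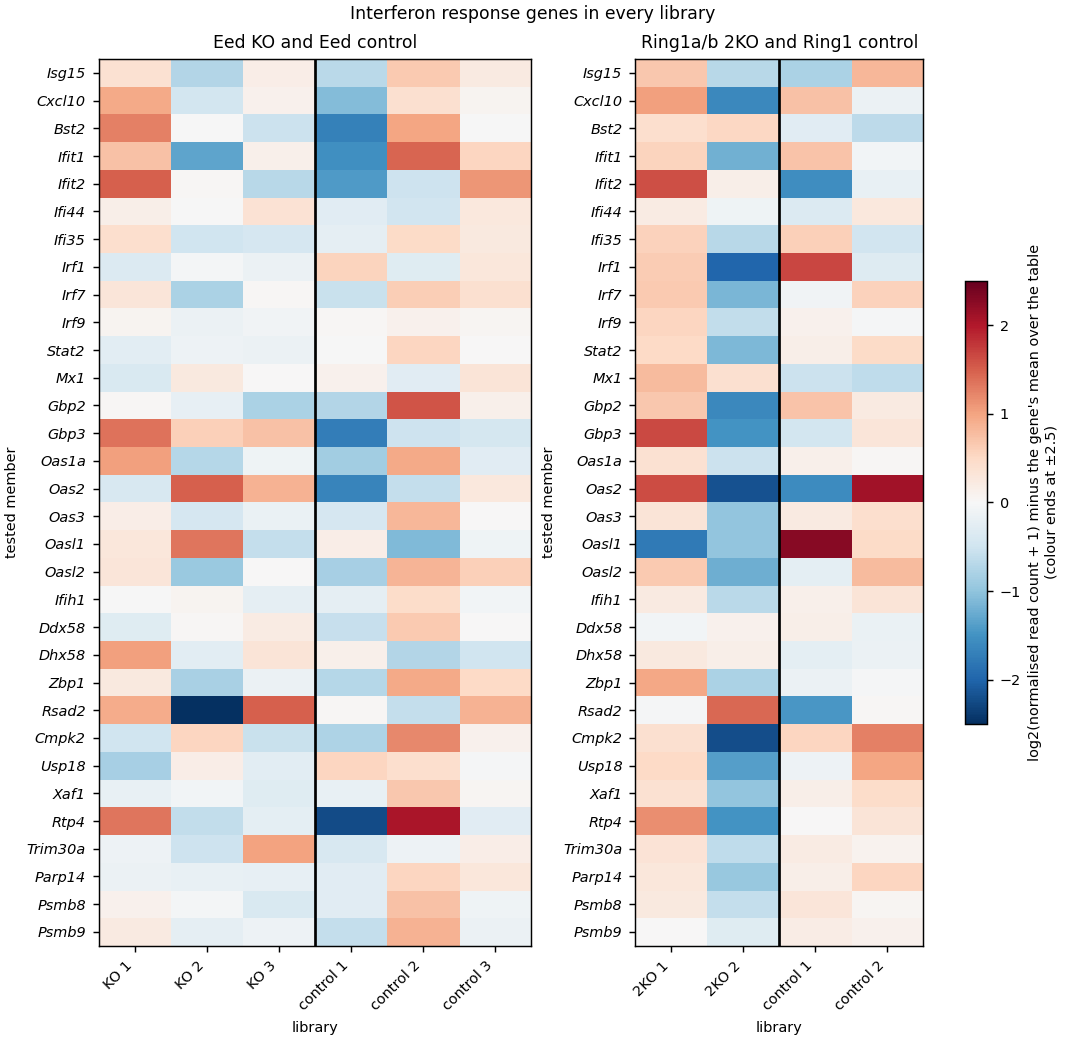
Log2(normalised read count + 1) of each tested member in each library, minus the gene's mean over its table (red above, blue below, colours end at ±2.5), with knockout libraries left of the black line and controls right of it. Eed control 2 is red for most members and Eed control 1 blue, and Ring1a/b 2KO 2 is blue for most members while Ring1a/b 2KO 1 is red.

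Transcription factors of the response are the members that pass the interferon signal to the genome. Irf1, an interferon-γ-inducible factor, was the member with the highest count per kilobase of exon in both tables. It had counts of 4148, 5115 and 4763 in Eed KO and 7731, 4281 and 6412 in Eed control (log2 fold change −0.36, SE 0.233, limma adjusted p = 0.989). Eed control 2 fell among the knockouts, so the groups overlapped, and this library was low for Irf1 although it was high for most members. Among the Ring1 libraries Irf1 counts were 2676 and 436 in the 2KO libraries and 5485 and 1369 in the controls, and the shallow library of each group was the low one. The 8 immediate early genes (Fos, Jun and Egr1 among them), which respond fast to tissue handling, put the 4 Ring1 libraries in the same order as Irf1 did. Their summed count was 187763 and 23008 in the 2KO libraries and 274366 and 109042 in the Ring1 controls. It was 495003 to 651096 in Eed KO and 702113 to 767822 in Eed control, without overlap. Their part in the Irf1 values was not tested.

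Stat2, the ISGF3 subunit that IFN-α and IFN-β signalling depends on, was 1399, 1550 and 1529 in Eed KO and 1684, 2446 and 1696 in Eed control. Every Eed KO library was below every control (log2 fold change −0.36, SE 0.199, limma adjusted p = 0.989). Across the Ring1 comparison the counts were 905 and 296 in the 2KO libraries and 709 and 892 in the controls, so the 2KO libraries enclosed the controls. Irf9, the DNA-binding subunit of ISGF3, had 1249, 1070 and 1117 in Eed KO and 1218, 1278 and 1226 in Eed control, with the smallest standard error of any member there (0.173). Irf7, which amplifies IFN-α production, ranged from 98.5 to 210 in Eed KO and from 115 to 261 in Eed control. Its counts were 83.4 and 23.3 in the 2KO libraries and 49.0 and 78.1 in the Ring1 controls. limma gave none of the 4 factors a positive log2 fold change in either comparison, and none passed the test. For Irf9 in Ring1a/b 2KO the sign turned with the method, at −0.079 by limma and 0.036 in the authors' deposited table.

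**Figure D3:**
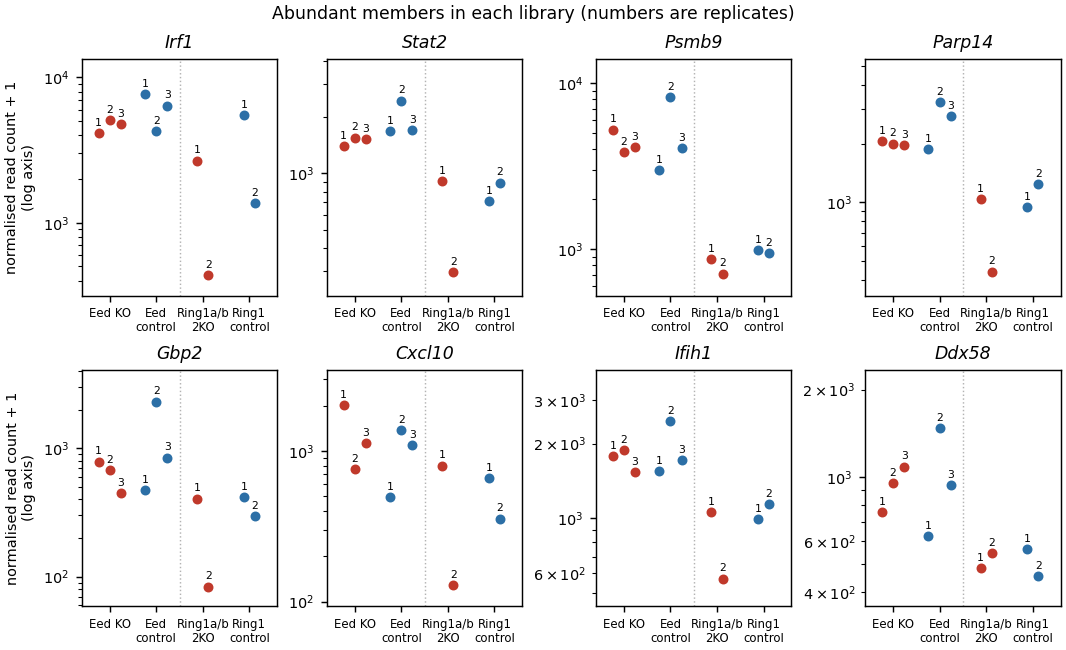
Normalised read count + 1 (log axis) of 8 abundant members in each library, with knockouts (red) left of their controls (blue) and replicate numbers over the points. Eed control 2 is the highest Eed library for Stat2, Psmb9, Parp14, Gbp2, Ifih1 and Ddx58, and Ring1a/b 2KO 2 is the lowest Ring1 library in all panels except Ddx58.

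The GTPases gave both the largest positive change in the Eed table and some of the widest spreads. Gbp3 (ENSMUSG00000028268.14, chromosome 3, 142560026 to 142573209), a guanylate-binding protein that acts on vacuoles of intracellular pathogens, had counts of 73.1, 42.5 and 47.3 in Eed KO and 7.79, 19.3 and 20.2 in Eed control. All 3 KO libraries lay above all 3 controls. The means were 54.3 ± 16.5 in Eed KO and 15.8 ± 6.92 in Eed control (SD, n = 3 each), a 3.45-fold ratio. On the log2 scale the change was 1.79 (SE 0.563, limma adjusted p = 0.868), and 1.38 to 2.01 when each library was left out in turn. Gbp3 and Stat2 were the members whose Eed groups did not overlap, 2 of 32 or 6.25%, where 9.2% of all features did the same. For the Ring1 libraries Gbp3 was 39.6 and 3.59 in the 2KO libraries and 8.33 and 15.0 in the controls, with the 2KO pair on either side of the controls.

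Gbp2, its close relative, went with the library pattern instead. Its counts were 785, 673 and 447 in Eed KO and 468, 2311 and 844 in Eed control. Eed control 2 held 3.52 times the mean of the other Eed controls, and the remaining libraries overlapped. In the Ring1 table Gbp2 counts were 404 and 82.5 in the 2KO libraries and 413 and 294 in the controls, so that Ring1a/b 2KO 2 alone was low. Mx1 (ENSMUSG00000000386.15, chromosome 16, 97447035 to 97462907), a dynamin-like GTPase that blocks viral ribonucleoproteins, was the GTPase member with separated Ring1 groups, at 72.9 and 55.6 in the 2KO libraries and 28.6 and 26.6 in the controls. Both 2KO libraries were above both controls, the deep and the shallow alike (log2 fold change 1.18, SE 0.523, unadjusted p = 0.050, limma adjusted p = 0.479). Among the Eed libraries Mx1 was 52.8, 81.9 and 69.4 in KO and 75.0, 56.8 and 87.0 in control, with full overlap. The difference of its effects between the knockouts was 1.28 on the log2 scale (SE 0.598, limma adjusted p = 1.00).

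Nucleic acid sensors detect viral RNA or DNA in the cytosol and start interferon production. Ifih1 (MDA5) recognises long double-stranded RNA and had 1785, 1879 and 1533 in Eed KO and 1546, 2461 and 1715 in Eed control. Its Ring1 table counts were 1061 and 570 in the 2KO libraries and 989 and 1140 in the controls. The groups overlapped in both tables. Ddx58 (RIG-I), the sensor of RNA ends, was 754, 950 and 1083 in Eed KO and 622, 1472 and 934 in Eed control. It was not lowest in Ring1a/b 2KO 2, with 481 and 545 in the 2KO libraries and 560 and 454 in the controls. Dhx58 (LGP2), which modulates both sensors, was 115, 46.7 and 70.2 in Eed KO and 61.4, 33.5 and 39.4 in Eed control, with overlap (log2 fold change 0.73, SE 0.488, limma adjusted p = 0.989). Among the Ring1 libraries it was 67.4 and 62.8 in the 2KO libraries and 47.9 and 51.5 in the controls, where the groups did not overlap (log2 fold change 0.38, SE 0.465, limma adjusted p = 0.818). Zbp1, a sensor of Z-form nucleic acid that can trigger necroptosis, was 115, 55.0 and 87.6 in Eed KO and 59.4, 189 and 138 in Eed control. Its counts were 57.5 and 16.1 in the 2KO libraries and 26.0 and 28.3 in the Ring1 controls, and it tracked the library pattern closely.

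The oligoadenylate synthetases make the second messenger that activates RNase L, an activity that mouse Oasl1 lacks. For Eed KO 3 of the 5 had a positive and 2 a negative log2 fold change, and for Ring1a/b 2KO all 5 were negative, with none past the test in either. Oasl2, the most abundant by count, was 1103, 469 and 906 in Eed KO and 502, 1605 and 1361 in Eed control. Across the Ring1 comparison it was 752 and 203 in the 2KO libraries and 402 and 824 in the controls, again with the lowest value in Ring1a/b 2KO 2. Oas1a spanned 123 to 420 in Eed KO and 112 to 394 in Eed control, and 50.2 to 96.4 in the 2KO libraries and 74.8 to 80.7 in the Ring1 controls. Oas3 had 133 to 199 in Eed KO and 132 to 317 in Eed control. Oas2 reached at most 24.9 in any library.

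Oasl1 (chromosome 5, 114923240 to 114937915), in mouse an inhibitor of Irf7 translation, was the one member with opposite signs and an unadjusted p under 0.05 for the difference between the knockouts. Its counts were 0.618 and 1.79 in the Ring1a/b 2KO libraries and 25.5 and 6.65 in the Ring1 controls. Both 2KO libraries were below both controls (log2 fold change −2.74, SE 1.18, unadjusted p = 0.044, limma adjusted p = 0.468). Across the Eed comparison it was 9.59, 20.7 and 4.73 in KO and 8.77, 3.04 and 7.08 in control, which overlapped (log2 fold change 0.68, SE 0.826). The difference of effects was −3.43 (SE 1.33, unadjusted p = 0.024, limma adjusted p = 1.00), and 285 of 15096 features, or 1.89%, had an unadjusted p under 0.05 there while 0 were called. These counts are low, and 1 of 32 members is near that background.

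**Figure D4:**
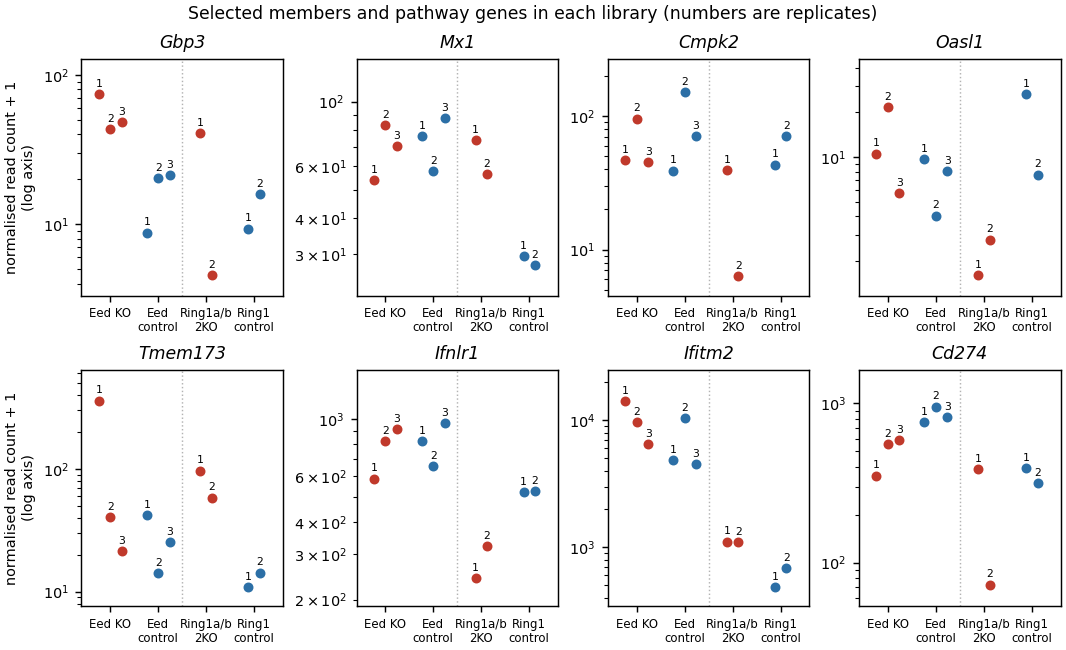
Normalised read count + 1 (log axis) of 4 members (top) and 4 other interferon pathway genes (bottom) in each library, with knockouts (red) left of their controls (blue) and replicate numbers over the points. Gbp3 and Cd274 are separated in the Eed table, and Mx1, Cmpk2, Oasl1, Tmem173, Ifnlr1 and Ifitm2 in the Ring1 table.

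None of the other effectors passed the test in either table. Parp14, a mono-ADP-ribosyltransferase, was 2055, 2001 and 1957 in Eed KO and 1874, 3273 and 2776 in Eed control. For the Ring1 libraries it was 1041 and 441 in the 2KO libraries and 949 and 1236 in the controls. The KO libraries of Eed were close together and within the spread of their controls. Usp18, which removes Isg15 from proteins and damps the type I receptor, was 264, 521 and 387 in Eed KO and 681, 628 and 455 in Eed control (log2 fold change −0.62, SE 0.304, limma adjusted p = 0.989). In the Ring1 table it was 159 and 43.0 in the 2KO libraries and 104 and 226 in the controls. Cmpk2, a mitochondrial nucleotide kinase that neighbours Rsad2 on chromosome 12, was 38.3 and 5.38 in the 2KO libraries and 42.2 and 69.8 in the Ring1 controls, with both 2KO libraries below both controls (log2 fold change −1.80, SE 0.887, limma adjusted p = 0.531). In the Eed table it was 45.6, 94.4 and 44.2 in KO and 38.0, 150 and 69.8 in control. Rsad2 (viperin) did not go with its neighbour: it was 14.2 and 41.2 in the 2KO libraries and 4.69 and 15.0 in the Ring1 controls, with its highest count in Ring1a/b 2KO 2.

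Rtp4, in mouse a damper of the response to type I interferon, spread widely in the Eed table, at 197, 49.8 and 64.7 in Eed KO and 15.6, 319 and 62.7 in Eed control. The highest and the lowest of the 6 values were both controls. The log2 fold change was 0.32 (SE 0.970) here and −0.35 in the authors' deposited table, so its sign turned with the method. Among the Ring1 libraries Rtp4 was 129 and 19.7 in the 2KO libraries and 57.3 and 71.5 in the controls. Xaf1, an inhibitor of XIAP, was 372 to 434 in Eed KO and 403 to 726 in Eed control. Trim30a, a tripartite motif protein that restrains NF-κB signalling in mouse, had 19.7 to 58.4 in Eed KO and 21.4 to 32.4 in Eed control, and under 10 in each Ring1 library.

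Secreted and surface effectors were Isg15, Cxcl10 and Bst2. Cxcl10, the chemokine that draws CXCR3-bearing T cells, was 2016, 756 and 1131 in Eed KO and 493, 1378 and 1097 in Eed control. Across the Ring1 comparison it was 800 and 127 in the 2KO libraries and 657 and 354 in the controls. Both comparisons overlapped, with Eed KO 1 and Ring1a/b 2KO 1 highest and Eed control 1 and Ring1a/b 2KO 2 lowest. Bst2 (tetherin), which holds budding virions on the cell, was 50.1 and 53.8 in the 2KO libraries and 30.2 and 23.3 in the Ring1 controls, where both 2KO libraries were above both controls (log2 fold change 0.94, SE 0.544, limma adjusted p = 0.587). Among the Eed libraries Bst2 was 365, 151 and 105 in KO and 46.7, 303 and 152 in control. Isg15, the ubiquitin-like modifier, ranged from 58.1 to 126 in Eed KO and from 60.4 to 153 in Eed control, and from 16.1 to 43.3 in the 2KO libraries and from 15.1 to 48.2 in the Ring1 controls.

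The IFIT proteins bind foreign RNA caps and ends. Ifit1 was 102, 23.9 and 67.1 in Eed KO and 20.5, 170 and 89.0 in Eed control, with the extremes again in Eed controls 1 and 2. Ifit2 was 31.5 and 10.8 in the 2KO libraries and 2.60 and 8.31 in the Ring1 controls, without overlap (log2 fold change 1.76, SE 0.964, limma adjusted p = 0.567). Across the Eed comparison Ifit2 was 36.0, 12.4 and 7.10 in KO and 3.90, 8.12 and 27.3 in control. Ifit3 had 17, 0 and 9 recovered reads in the Eed KO libraries and 0 in every Eed control. With a floor of 3 reads per control library, the Eed KO mean as counted was 3.05 times that floor. Eed KO 2 had 0 reads like every control, so the groups overlapped, and Ifit3 was under the mean needed for testing. Of the IFI members, Ifi44 kept a narrow range, from 111 to 144 in Eed KO and 80.1 to 133 in Eed control. Ifi35 had 434 to 819 in Eed KO and 524 to 846 in Eed control. Reads shared by close copies (Ifit3 with Ifit3b, Oas1a with the other Oas1 genes, the Gbp cluster) may have been split between them, and single values of such genes are uncertain.

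The immunoproteasome subunits cut proteins into peptides for MHC class I and follow IFN-γ. Psmb9 was 5255, 3859 and 4137 in Eed KO and 2986, 8255 and 4050 in Eed control, again bounded by Eed controls 1 and 2. For the Ring1 libraries it was 871 and 710 in the 2KO libraries and 985 and 942 in the controls. Both 2KO libraries were below both controls (log2 fold change −0.29, SE 0.209, limma adjusted p = 0.670). Psmb8 was 3439, 3076 and 2462 in Eed KO and 2610, 5307 and 2950 in Eed control. Its counts of 1158 and 642 in the 2KO libraries and 1200 and 999 in the Ring1 controls overlapped, since Ring1a/b 2KO 1 was above Ring1 control 2. In all, 7 of the 32 tested members (21.9%) had Ring1 groups that did not overlap, against 42.9% of all features. Mx1, Dhx58, Bst2 and Ifit2 were higher in the 2KO, 12.5% against 21.4% of all features, and Cmpk2, Psmb9 and Oasl1 were lower, 9.38% against 21.5%.

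Setting aside Ring1a/b 2KO 1 shows how much the Ring1 comparison depends on which library stands for the knockout. With 2KO 2 alone as the knockout, and its spread assumed to be that of the controls, limma called 565 of 15262 features, or 3.7%. Of the 32 members 4, or 12.5%, were then called, all lower (2.84% of all features were called in that direction): Stat2 (log2 fold change −1.42, adjusted p = 0.023), Parp14 (−1.29, adjusted p = 0.029), Cxcl10 (−1.91, adjusted p = 0.035) and Gbp2 (−2.07, adjusted p = 0.019). With 2KO 1 alone as the knockout no member was called and the median was 0.27. Ring1a/b 2KO 1 held more than 2KO 2 for 27 of 32 members, at a median ratio of 2.55.

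The same libraries stood apart for interferon genes outside the list and, in part, for basal keratinocyte markers. The median basal keratinocyte marker was highest in Eed control 2 (0.30) and lowest in Eed control 1 (−0.19) of the Eed libraries. In the Ring1 table it was lowest in Ring1a/b 2KO 2 (−0.34), as for the members. It was −0.04 in Ring1a/b 2KO 1, where the median member was at 0.50. That marker list holds Ly6a, itself interferon-inducible. Across 10 libraries, and as deviations from group means, 20 of the 26 members that averaged 20 or more in both tables correlated with the mean of the other members at a Pearson r above 0.5 (median 0.82). The coefficients ran from −0.16 for Mx1 to 0.98 for Oas3, and Mx1, Dhx58 and Ifi44 were the members least like the others. Among 11269 genes that are not members and averaged 50 or more in both tables, Cxcl9, a chemokine induced by IFN-γ, followed the members most closely (r = 0.99). Vta1, Kbtbd3, Med22, Rtkn, Slfn5, Crk and Ets1 came next, and of these only Slfn5 is on the interferon pathway lists. Cxcl9 was 729, 410 and 420 in Eed KO and 158, 728 and 323 in Eed control, and 530 and 71.7 in the 2KO libraries and 214 and 179 in the Ring1 controls. These coefficients describe 10 libraries, which share a normalization within a table and differ in depth. In the Ring1 groups of 2 the deviations mirror each other (0.67 and −0.67 for the members in 2KO), so the 10 values are not independent. The share of all features with an r above 0.5 was not computed.

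The interferon-induced GTPases beyond the members, which attack the vacuoles of intracellular pathogens, showed the pattern in a steeper form. Their summed count was 2948, 3564 and 3050 in Eed KO and 2199, 9184 and 4284 in Eed control, and 2337 and 656 in the 2KO libraries and 1958 and 2463 in the Ring1 controls. Ifi47 was 206, 184 and 190 in Eed KO and 21.4, 844 and 220 in Eed control. Tgtp1 was 31.2, 36.3 and 33.9 in Eed KO and 3.90, 255 and 47.5 in Eed control. The 3 KO libraries hardly differed for this pair, while the controls spread widely on either side of them. In the Ring1 table Ifi47 was 219 and 53.8 in the 2KO libraries and 219 and 243 in the controls. Tgtp1 there was 43.9 and 0 in the 2KO libraries and 38.5 and 59.8 in the controls. Some of these genes are near-identical copies (Tgtp1 and Tgtp2), and others overlap on the genome (Igtp and Irgm2).

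**Figure D5:**
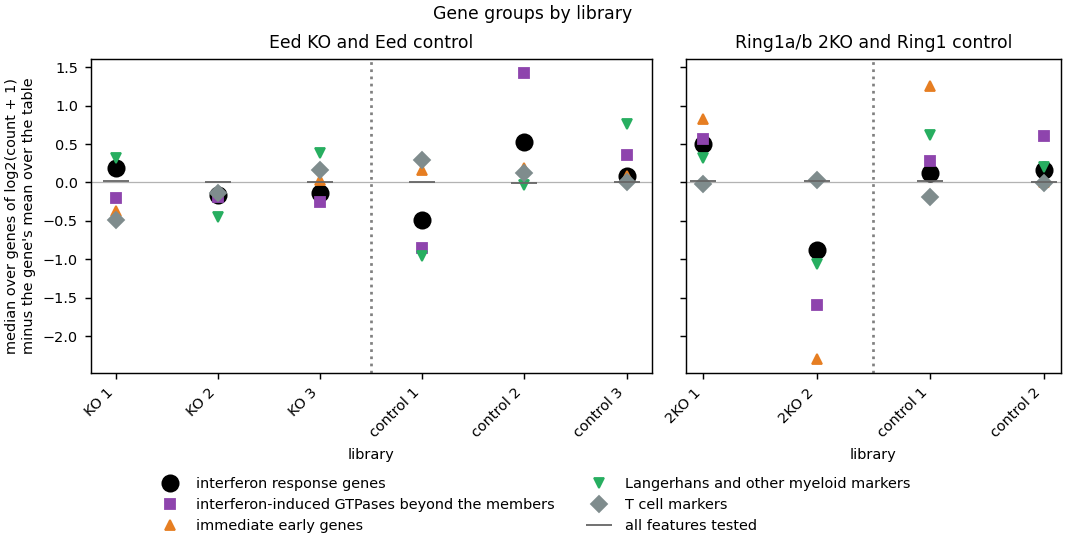
Median over genes of log2(normalised read count + 1) minus the gene's mean over its table, for each library, for the tested members (black circles), other interferon-induced GTPases, immediate early genes, myeloid markers, T cell markers and all features tested (dashes), with knockouts left of the dotted line. Members and GTPases are highest in Eed control 2, lowest in Eed control 1 and lowest in Ring1a/b 2KO 2, where the immediate early genes (−2.29) and myeloid markers are lowest too. In the Eed table the myeloid markers are lowest in Eed control 1 (−0.95) and highest in Eed control 3 (0.76).

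Other cell types and tissue handling were measured through their markers. All 14 Langerhans and other myeloid markers had rows, with Adgre1, Itgax and Lyz2 at 0 in at least 1 library of each table and Tyrobp also in the Ring1 table. Their summed count was 2660 to 5275 in Eed KO and 1481 to 5430 in Eed control, and 1139 to 1336 in Ring1a/b 2KO and 999 to 1015 in Ring1 control. The lowest Eed sum was in Eed control 1, also the lowest library for 13 members, and the highest was in Eed control 3. The sum and the list went opposite ways in the Ring1 table. Of the 10 tested myeloid markers 7 had a log2 fold change below 0 (median −0.98). Mfge8, which other cells make too, was 422 and 567 in the 2KO libraries and 91.7 and 163 in the controls. The authors' deposited table called Mfge8 higher there (log2 fold change 1.98, adjusted p = 0.00032). T cell markers summed to 5259 to 6747 in Eed KO and 4887 to 6717 in Eed control, and to 1458 to 1530 in Ring1a/b 2KO and 1594 to 1760 in Ring1 control. The Ring1 sums did not overlap, but the list was divided. Of the 7 tested there, 3 had a log2 fold change above 0 and 4 below (median −0.10). Without overlap between the groups, 3 were higher in the 2KO and 2 were lower. The markers Cd2 and Nkg7 were at 0 in at least 1 library of each table, Gzmb in the Eed table and Lck in the Ring1 table. Fibroblast markers summed to 355 to 959 in Eed KO and 62.9 to 258 in Eed control. Their Ring1 sums were 156 to 788 in Ring1a/b 2KO and 87.5 to 123 in Ring1 control. In both tables the knockout sums lay above the control sums, without overlap. By limma 4 of the 5 tested had a positive log2 fold change in Eed KO, and all 4 tested did in Ring1a/b 2KO. Col3a1 and Pdgfrb were at 0 in at least 1 library of each table, and Lum in the Ring1 table. The authors' deposited table called Dcn in Eed KO (log2 fold change 3.33, adjusted p = 0.00024) and no fibroblast marker in Ring1a/b 2KO. Melanocyte markers summed to 558 to 966 in Eed KO and 713 to 792 in Eed control, and to 353 to 658 in Ring1a/b 2KO and 241 to 311 in Ring1 control, without overlap in the Ring1 table. There 6 of the 7 tested had a log2 fold change above 0 (median 1.54), with 4 at an unadjusted p under 0.05 and 0 called by limma. The authors' deposited table called Tyrp1, a pigment enzyme, which was 116 and 48.4 in the 2KO libraries and 0 in both controls. For the Eed comparison it called Mlana, which was 49.2, 7.26 and 41.0 in KO and 0 in every control. Kit, Mlana and Sox10 were also at 0 in at least 1 library of each table. B cell and plasmacytoid dendritic cell markers summed to 3336 to 4489 in Eed KO and 3637 to 4142 in Eed control. Their sums were 1499 to 1581 in Ring1a/b 2KO and 1667 to 1976 in Ring1 control, with Cd79a at 0 in at least 1 library of each table. These Ring1 sums did not overlap, while 3 of the 5 tested there had a log2 fold change above 0 and 2 below. Bst2 is on this marker list and is also a member, so the list is not independent of the members. Endothelial markers summed to 310 to 551 in Eed KO and 282 to 603 in Eed control, and to 437 to 568 in Ring1a/b 2KO and 497 to 537 in Ring1 control, with Cdh5 at 0 in at least 1 library of each table. Y-linked genes summed to 126 to 219 in Ring1a/b 2KO and 1318 to 2378 in Ring1 control, so that they differed with the genotype there. In the Eed table they ranged from 152 to 8958 in KO and 557 to 10101 in control. Eed controls 1 and 2, the low and the high library of the interferon pattern, were both at the high end of that range. The part of depth, these markers and, in the Eed table, the Y-linked level in the member values was not tested. In the Ring1 table the Y-linked level, a marker of sex, split the groups without overlap. Sex and knockout therefore cannot be told apart in the Ring1 comparison. In bulk RNA, fewer cells of a type and less RNA per cell cannot be told apart.

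The rest of the pathway was described through lists chosen as the members were, with 100 genes tested in the Eed table and 98 in the Ring1 table. limma called 0 of them in either table, with 3 at an unadjusted p under 0.05 in the Eed table and 8 in the Ring1 table, where 4.73% (Eed) and 10.4% (Ring1) of all features were. In Eed KO 37 had a positive and 63 a negative log2 fold change, with a median of −0.09. In Ring1a/b 2KO 22 were positive and 76 negative, with a median of −0.38. Over all features 7873 of 16122 (Eed) and 7659 of 15310 (Ring1) were negative. The authors' deposited table called 1 pathway gene, Tmem173, in the Ring1 comparison.

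Few ligand reads were present. Ifnk, the interferon of keratinocytes, had counts of 26.4, 97.5 and 47.3 in Eed KO and 74.0, 34.5 and 32.4 in Eed control. It was 5.56 and 26.9 in the 2KO libraries and 12.5 and 46.5 in the Ring1 controls, with the shallow library of each group higher. Ifna16 was 27.6, 72.6 and 52.1 in Eed KO and 42.9, 56.8 and 22.2 in Eed control, and 15.5 and 28.7 in the 2KO libraries and 10.4 and 49.9 in the Ring1 controls. Both ligands overlapped between groups in both tables. Ifna2, Ifnz, Ifnl2 and Ifnl3 had at most 20 recovered reads in all over the libraries of a table.

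The receptors bind the ligands at the surface. Ifnar1 was 1498, 1276 and 1639 in Eed KO and 1537, 1451 and 1576 in Eed control, and 535 and 525 in the 2KO libraries and 659 and 515 in the Ring1 controls. Ifnar2 ranged from 541 to 1155 in Eed KO and 614 to 751 in Eed control, and from 260 to 317 in the 2KO libraries and 228 to 278 in the Ring1 controls. Ifngr1, the ligand-binding chain for IFN-γ, was 3013, 3611 and 4641 in Eed KO and 5791, 4909 and 5782 in Eed control. Every Eed KO library was below every control (log2 fold change −0.57, SE 0.200, limma adjusted p = 0.921). Among the Ring1 libraries Ifngr1 was 1030 and 420 in the 2KO libraries and 1419 and 995 in the controls. Ifnlr1, the receptor chain for IFN-λ, was 242 and 321 in the 2KO libraries and 520 and 527 in the Ring1 controls, with both 2KO libraries lower (log2 fold change −0.91, SE 0.248, limma adjusted p = 0.282). Among the Eed libraries Ifnlr1 overlapped, at 588, 820 and 916 in KO and 822, 658 and 967 in control.

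The receptor kinases Jak1 and Jak2 and the transcription factor Stat3 each had a log2 fold change below 0 in both tables. The kinase Tyk2 was at −0.17 in Eed KO and −0.0019 in Ring1a/b 2KO by limma, and at 0.011 in Ring1a/b 2KO in the authors' deposited table. limma called none of these genes. Jak1, which serves every interferon receptor, was 7513, 9147 and 9607 in Eed KO and 12144, 10075 and 10444 in Eed control. Across the Ring1 comparison it was 2774 and 1944 in the 2KO libraries and 3478 and 3104 in the controls. The knockout libraries were below the controls in both tables, with log2 fold changes of −0.32 (SE 0.188, limma adjusted p = 0.989) in Eed KO and −0.50 (SE 0.230, limma adjusted p = 0.493) in Ring1a/b 2KO. Stat3, a STAT used mainly by cytokines of the IL-6 family, had log2 fold changes of −0.43 in Eed KO and −0.65 in Ring1a/b 2KO. Those of Jak2, a kinase of the IFN-γ receptor, were −0.18 in Eed KO and −0.69 in Ring1a/b 2KO.

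Tmem173 (STING), the adaptor that turns cytosolic DNA sensing into interferon production, was 95.8 and 57.4 in the Ring1a/b 2KO libraries and 9.90 and 13.3 in the Ring1 controls. Both 2KO libraries were well above both controls. The change on the log2 scale was 2.59 (SE 0.610, limma adjusted p = 0.210), and between 2.23 and 2.96 when each library was left out. The authors' deposited table gives 2.77 on the log2 scale with an adjusted p of 0.0116, and edgeR gave an adjusted p of 0.207. Across the Eed comparison Tmem173 was 360, 39.4 and 20.5 in KO and 40.9, 13.2 and 24.3 in control, where Eed KO 1 alone was high. Myd88 and Mavs, adaptors of the Toll-like and RIG-I-like receptors, had no called change in either table.

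MHC class I presentation genes leaned low in Ring1a/b 2KO, with 11 of 11 log2 fold changes below 0 (median −0.53), and 10 of 11 below 0 in Eed KO (median −0.12), none called. Nlrc5, the transactivator of MHC class I genes, was 2569 and 1635 in the 2KO libraries and 3491 and 2936 in the Ring1 controls. H2-K1, a class I heavy chain, was 27395 and 12594 in the 2KO libraries and 34971 and 23971 in the controls. The lowest value of both genes was in Ring1a/b 2KO 2, and the list's ratio of 2KO 1 to 2KO 2 had a median of 1.81.

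Among other interferon-stimulated genes, Herc6, the mouse ligase that attaches Isg15, was below its controls in both tables. It was 317, 463 and 565 in Eed KO and 725, 641 and 690 in Eed control (log2 fold change −0.65, SE 0.260, limma adjusted p = 0.989). For the Ring1 libraries it was 253 and 138 in the 2KO libraries and 268 and 467 in the controls (log2 fold change −0.92, SE 0.387, limma adjusted p = 0.468). Cd274 (PD-L1), an IFN-γ-inducible checkpoint ligand, was 351, 552 and 589 in Eed KO and 760, 955 and 818 in Eed control, without overlap (log2 fold change −0.79, SE 0.255, limma adjusted p = 0.892). In the Ring1 table Cd274 was 384 and 71.7 in the 2KO libraries and 390 and 316 in the controls. Ifitm2, which blocks viral fusion, was 1105 and 1090 in the 2KO libraries and 487 and 681 in the Ring1 controls (log2 fold change 0.93, SE 0.229, limma adjusted p = 0.230, and adjusted p = 0.0881 in the authors' deposited table). Ly6a, on which the cells were sorted, was 17308, 12450 and 12788 in Eed KO and 8573, 19543 and 10444 in Eed control, with the lowest and the highest values in Eed controls 1 and 2. It was 2851 and 4267 in the 2KO libraries and 3001 and 2474 in the Ring1 controls, so the library that was lowest for most members was the highest for Ly6a.

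No member differed between the knockouts by the test of the difference. limma over all 10 libraries, each effect taken within its own table, called 0 of 15096 features and 0 of 32 members. The standard error of a member's difference had a median of 0.86 on the log2 scale and ran from 0.39 to 1.91, which sets how large a difference could have been seen.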

How the data were processed

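Per the labels' protocols, RNA of sorted epidermal cells was amplified and sequenced as paired-end reads. Per the submitters' processing notes, kallisto 0.42.5 and DESeq2 3.11 were used with mm10; strand handling is not given in the sources used here. The deposited tables give normalized counts per library, a signal unit, with the authors' own log2 fold changes and p-values; the authors' test statistic, a score, was not used. Each library's values all (100%) sat on whole multiples of a single step, within 1e-06, so reads were recovered from them; since kallisto estimates counts, these may be rounded estimates. The totals set the depth, and values near a few reads are imprecise.

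limma 3.58.1 (trend, robust; R 4.3.3) was fitted to log2(value + 1) for features with a mean of at least 5, each knockout against its own controls; calls had an adjusted p under 0.05. The difference of effects used all 10 libraries. edgeR 4.0.16, DESeq2 1.42.0, other filters, pseudocounts, scalings, a replicate block and left-out libraries were alternatives. Scripts were tested on simulated data. Floors cover counting error only.

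Members and lists were chosen with earlier results of these data known. Values in every library are given for members with a mean of at least 20 whose groups do not overlap, the 6 highest means, the 4 largest changes each way and the 4 smallest p-values, and up to 3 genes per pathway list by p; some others were added for completeness of each role, after their values were seen. Same-numbered libraries gave correlations of −0.11, 0.15 and 0.21 in the Eed table, and differently numbered ones −0.23 to 0.11. The same-numbered control correlated best with Eed KO 2 and Eed KO 3 and least with Eed KO 1. In the Ring1 table the value was 0.14 for both pairs, which groups of 2 make equal. In the Eed column names same-numbered libraries share a letter (A, B or C), whose meaning the labels do not give. The numbers were not taken as pairs, and a fit with them as a block is given below. Gene positions are from GENCODE M21. A gene of the pathway lists is not reported here by name; counts over all pathway genes hold it.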

Additional observations from a re-analysis of the deposited data

How the results depend on the processing

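The count of members called was 0 in Eed KO and in the difference of effects under every alternative run. In Ring1a/b 2KO it was 0 except with a library left out, where it ran from 0 to 4, the 4 being without Ring1a/b 2KO 1. The median member log2 fold change in Eed KO stayed below 0 under every alternative other than leaving out a library, where it ran from −0.35 to 0.16. In Ring1a/b 2KO it ran from −1.09 to 0.27 with a library left out. Features called in Eed KO were 0 by limma, 127 by DESeq2 and 127 in the authors' deposited table, 10 in 1 fit over all 10 libraries, and 0 to 4 with a library left out. In Ring1a/b 2KO they were 6 by limma, 10 with no filter, 231 by DESeq2 and 231 in the authors' deposited table, 0 in 1 fit over all 10 libraries, and 0 to 565 with a library left out. With the replicate number as a block limma called 1 feature in Eed KO and 36 in Ring1a/b 2KO, and no member; the numbers are shared but not shown to pair the libraries, and the check of pairing is in the methods.

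With a library left out, log2 fold changes that turned sign ran from −0.25 to 1.08 for Bst2, −0.036 to 0.73 for Cxcl10 and −0.065 to 0.68 for Ifna16 in Eed KO. In Ring1a/b 2KO they ran from −2.07 to 0.21 for Gbp2, −1.95 to 0.14 for Ifnk, −1.81 to 0.058 for Usp18 and −0.71 to 1.06 for Zbp1, which was also −0.094 under quantile normalization. The cause was not tested. Precision is limited by 2 libraries per Ring1 group and by 6237389 reads in the shallowest library.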

Other observations

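Aim2, a sensor of cytosolic DNA named here after its values were seen, had counts of 56.9 and 407 in the Ring1a/b 2KO libraries and 40.6 and 53.2 in the Ring1 controls. Its highest value was in Ring1a/b 2KO 2, the library lowest for 23 of the 32 tested members. In the Eed table Aim2 was 80.3, 15.6 and 60.0 in KO and 11.7, 23.3 and 57.6 in control, with overlap. Socs3, a feedback inhibitor of JAK signalling also named after its values were seen, was 5359 and 715 in the Ring1a/b 2KO libraries and 6083 and 1574 in the Ring1 controls, the same order of libraries as Irf1. In the Eed table Socs3 was 10518, 14238 and 14907 in KO and 14503, 13872 and 14213 in control.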
